A study of Mus musculus with 12 samples.

Results

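The genes described here are 10 genes by which cells sense bacteria and other microbes: the Toll-like receptors Tlr1, Tlr2, Tlr3, Tlr4, Tlr5, Tlr7 and Tlr9, the adaptor Myd88, the co-receptor Cd14 and the cytosolic sensor Nod2. They were chosen by name, and a probe was found for 9 of the 10 on the array. Of these, 8 were bright enough to be tested, among 23739 genes tested in all. Tlr5 had no probe that could be matched and was not analysed here, and Tlr7 was too dim to test.

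Toll-like receptors are membrane proteins that bind molecules shared by many microbes. Those at the cell surface bind molecules from the outside of microbes, such as parts of the bacterial wall, and those in endosomes bind nucleic acids. Most of them pass the signal through the adaptor Myd88 to kinases that free the transcription factor NF-kappaB, which switches on genes of cytokines and chemokines. Cd14 hands lipopolysaccharide to Tlr4 and helps Tlr2, and Nod2 detects a fragment of peptidoglycan inside the cell. In the colon these genes are used by macrophages and other immune cells as well as by the epithelium, which lies next to a dense bacterial community.

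Gene expression was measured on 12 single-colour arrays of mucosa scraped from the colon of C57BL/6 mice, 1 mouse per array. All mice were wild-type recipients of bone marrow, so the recipient's own tissue, epithelium included, carried wild-type Muc1, which encodes a mucin of the cell surface, in every group. The marrow came from C57BL/6 wild-type donors (groups WT_untreated and WT_AOMDSS) or C57BL/6 Muc1 knockout donors (KO_untreated and KO_AOMDSS), with 3 mice in each of the 4 groups. Treated mice received the colon carcinogen azoxymethane (AOM, 12.5 mg/kg, injected into the peritoneum). Dextran sodium sulfate (DSS), which injures the colon lining, followed in their drinking water after 5 days. It was given at 2% for 4 days, then water for 14 days, then both again, then 2.5% DSS for 5 days, and the colon was taken 1 day later. The age of the mice and the share of blood cells that came from the donor are not given in the sources used here.

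Values are log2 signals set so that 0 is the 75th percentile of the signals on that array, and a step of 1 is a doubling. Levels of different genes are not comparable on this scale, because probes differ in brightness. WT_AOMDSS 3 was the dimmest array, with that percentile at 153.2 units against 332 to 767.8 for the rest, and 57.9% to 78.2% of gene probes rose clearly over background. The arrays lay on 3 slides. The WT_untreated mice shared slide 1 with KO_untreated 1. On slide 2 were WT_AOMDSS 3 and KO_AOMDSS 3 beside KO_untreated 2 and 3. Mice 1 and 2 of both treated groups were on slide 3, which was scanned on another day and carried more spots of uneven signal (496 to 781 an array, against 4 to 52). Treatment and slide therefore overlapped, and results are given with slide as a block where that changes them. All 10 epithelial markers on a fixed list were well above background on all 12 arrays. Muc1 itself read -3.80 to -0.99 over the 12 arrays by its tested probe and passed no test. That probe was lower in untreated mice with KO marrow (-1.11). A second Muc1 probe ran the other way there, at -3.96 to -3.23 with KO and -6.01 to -4.06 with WT marrow. In these chimeras the Muc1 signal cannot check the donor label, because the recipient's epithelium carried the gene. Summed fibroblast markers were 14.3 times the array's 75th percentile in WT_untreated 2 against 2.28 and 3.11 in the other WT_untreated mice. Summed adipocyte markers were 103.1 in WT_untreated 2 and 14.4 in WT_AOMDSS 2, against 0.477 to 2.79 in the other 10 mice.

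The stretches just before the starts of these genes were searched for the binding motif of NF-kappaB (the kappaB consensus) and for TGANTCA, the motif of AP-1, another factor downstream of the receptors. RefSeq promoter windows of assembly GRCm38.p6, 250 bases before to 50 bases after the start, were held for 7 of the 10 genes, and both strands were searched. Tlr4, Tlr7 and Cd14 had no window. The kappaB consensus was found in the windows of Tlr2 and Tlr3 and not in those of Tlr1, Tlr5, Tlr9, Myd88 and Nod2. It occurs in 4.51% of all 32851 windows. TGANTCA was found in the window of Tlr9 and in 7.81% of all windows. The 3 windows with a match are printed from 250 bases before the start to 10 bases after it, 5′ to 3′, with the matches in capitals.
Tlr2 (chr3:83841599-83841858, minus strand): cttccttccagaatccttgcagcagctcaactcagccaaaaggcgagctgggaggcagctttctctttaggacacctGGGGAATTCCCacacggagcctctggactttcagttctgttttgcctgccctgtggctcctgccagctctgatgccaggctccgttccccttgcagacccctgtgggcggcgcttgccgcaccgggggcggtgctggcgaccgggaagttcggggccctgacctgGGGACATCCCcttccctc
Tlr3 (chr8:45410371-45410630, minus strand): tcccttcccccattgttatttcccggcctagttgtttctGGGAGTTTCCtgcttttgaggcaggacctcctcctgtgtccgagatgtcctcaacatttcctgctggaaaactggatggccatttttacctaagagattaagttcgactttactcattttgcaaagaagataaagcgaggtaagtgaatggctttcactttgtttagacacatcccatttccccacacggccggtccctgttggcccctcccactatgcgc
Tlr9 (chr9:106222348-106222607, plus strand): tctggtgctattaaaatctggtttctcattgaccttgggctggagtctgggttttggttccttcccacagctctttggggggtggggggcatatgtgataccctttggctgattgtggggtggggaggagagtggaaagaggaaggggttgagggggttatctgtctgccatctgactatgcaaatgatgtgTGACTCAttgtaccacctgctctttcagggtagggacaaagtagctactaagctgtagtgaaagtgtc
In Tlr2 a pair of overlapping kappaB matches, GGGGAATTCC and GGGAATTCCC, begins at positions -173 and -172 from the start, and another, GGGACATCCC, at -8. The match in Tlr3, GGGAGTTTCC, begins at -211, and TGACTCA in Tlr9 at -58. A match describes the letters only, and no binding was measured.

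The first question was how AOM and DSS changed these genes in mice with each marrow. Cd14 and Tlr2 rose with both marrows, Myd88 with WT marrow and Nod2 with KO marrow, while Tlr4 and Tlr9 passed no test. With the mean of both marrows taken, Cd14, Nod2, Tlr2, Myd88 and Tlr3 rose, which was 5 of the 8 genes tested against 7.55% of all genes. Tlr3 rose by only 1 of its 2 probes. With WT marrow alone 3 of 8 rose against 3.6% of all genes, and with KO marrow alone 3 of 8 rose against 1.85%. None of the 8 fell. Fitted with slide as a block, 2 of 8 passed for the mean of both, 0 of 8 with WT marrow and 2 of 8 with KO marrow. In the same order, that fit called 974, 111 and 1106 of all 23739 genes higher. All treated mice were above all untreated mice in 6 of the 8 genes with WT marrow, in 5 with KO marrow and in 5 over both, against 11.2%, 11.2% and 4.28% of all genes. Tlr3 is counted in each of these by its tested probe, and its other probe overlapped. The median change of the 8 genes was 0.95 with WT marrow, 0.74 with KO marrow and 0.84 for the mean of both, beside medians over all genes of -0.24, -0.11 and -0.19. All these tests are limma fits with Benjamini-Hochberg adjustment over all genes and a threshold of 0.05, with n = 3 mice per group.

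**Figure D1:**
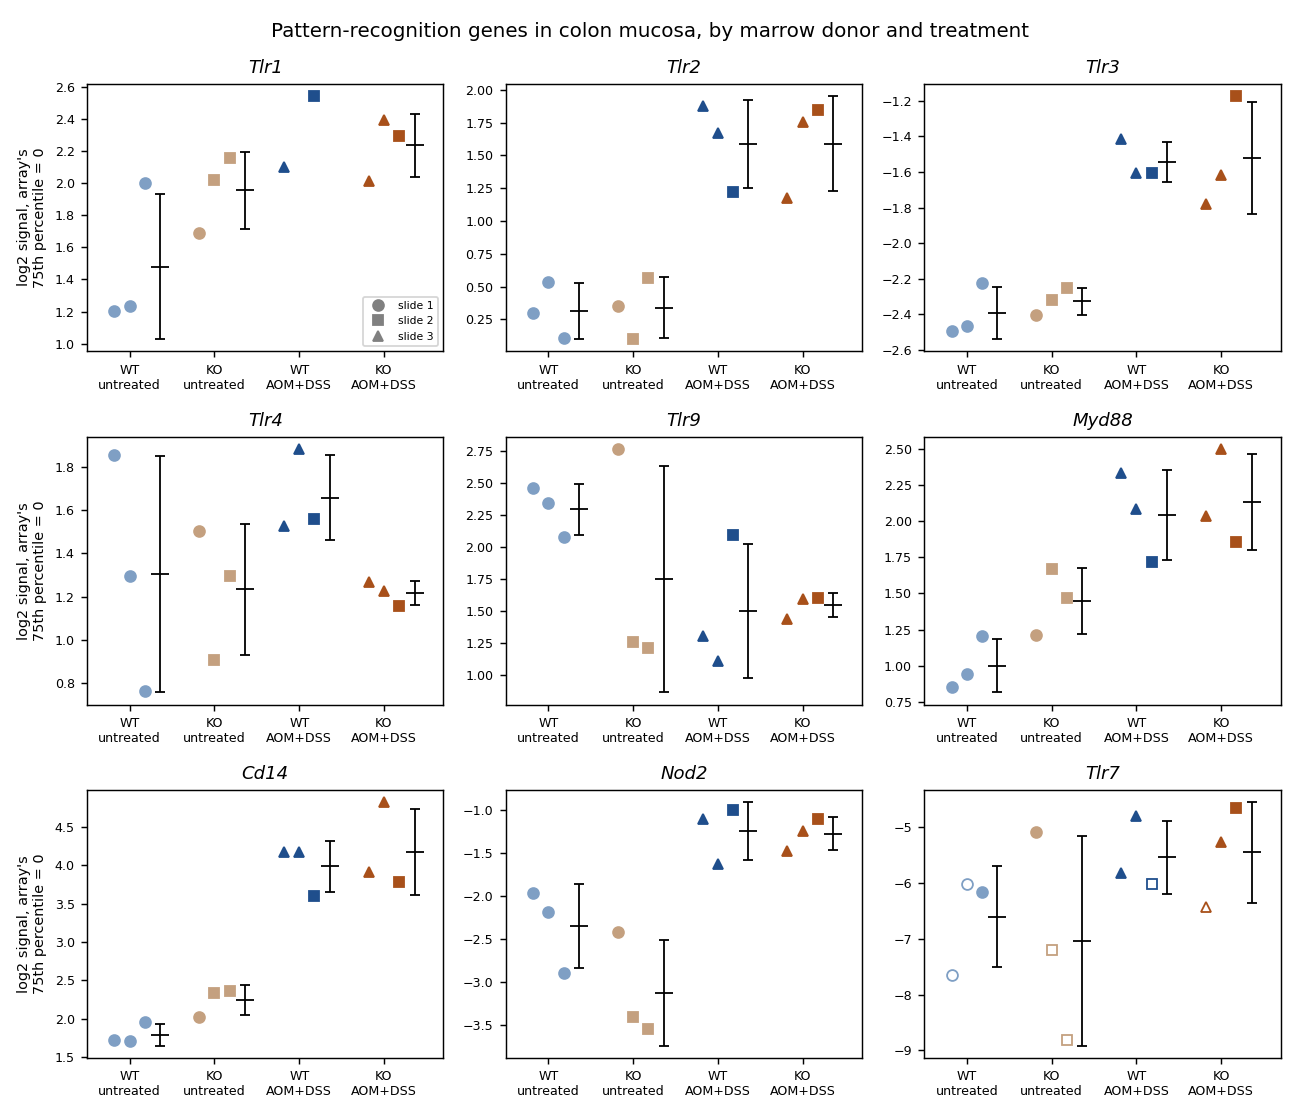
Log2 signal (array's 75th percentile = 0) of 9 genes in each mouse, by marrow donor and treatment. Symbols are mice, their shape gives the slide, open symbols were not well above background, and bars are the group mean ± SD (none for Tlr1 in WT_AOMDSS, where 1 array has no value). Every treated mouse lies above every untreated mouse in Tlr2, Tlr3 (1 of its 2 probes is drawn), Myd88, Cd14 and Nod2, while the groups overlap in Tlr4 and Tlr9.

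Cd14, the co-receptor that binds lipopolysaccharide, changed most among these genes in the fit without slide, while the slide block put Nod2 (2.39) above it (1.45). It read 1.72, 1.71 and 1.96 in the WT_untreated mice and 2.02, 2.34 and 2.37 in the KO_untreated mice. After treatment it read 4.18, 4.17 and 3.60 with WT marrow and 3.91, 4.82 and 3.79 with KO marrow. The lowest treated mouse was therefore more than 1 log2 unit above the highest untreated mouse. The change was 2.19 ± 0.28 (SE, adjusted p = 0.0019, limma) with WT marrow, a 4.55-fold rise, and 1.93 ± 0.28 (adjusted p = 0.0025, limma) with KO marrow, a 3.80-fold rise. For the mean of both it was 2.06 ± 0.20 (adjusted p = 5.0e-05, limma). Fitted with slide as a block, it was 1.45 for the mean of both (adjusted p = 0.029, limma) and 1.43 with KO marrow (adjusted p = 0.021, limma), and with WT marrow 1.47 (adjusted p = 0.15, limma), which no longer passed. Within slide 2, where 1 KO_AOMDSS mouse stood against 2 KO_untreated mice, it was 1.43, a value given without a test because there was a single treated mouse.

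Tlr2, the receptor for bacterial lipoproteins, pairs with Tlr1 or Tlr6 and was read by 10 spots per array. It was at 0.30, 0.53 and 0.11 in WT_untreated mice and at 0.35, 0.098 and 0.57 in KO_untreated mice. In treated mice it was at 1.88, 1.67 and 1.22 with WT marrow and 1.17, 1.75 and 1.85 with KO marrow. The treated and untreated mice did not overlap, and both treated groups covered nearly the same range. The spread between the spots of 1 array was small beside this step, with a median SD of 0.082. The rise was 1.27 ± 0.27 (adjusted p = 0.016, limma) with WT marrow and 1.25 ± 0.27 (adjusted p = 0.025, limma) with KO marrow. The size held with slide as a block, at 1.24 and 1.20, but neither value passed then (adjusted p = 0.26 and 0.064, limma). The mean of both, 1.26 ± 0.19 (adjusted p = 0.0011, limma), became 1.22 (adjusted p = 0.076, limma). The call with WT marrow was lost without WT_untreated 1 (1.27, adjusted p = 0.064) or WT_AOMDSS 1 (1.13, adjusted p = 0.073), and with KO marrow without KO_untreated 1, 2 or 3 or KO_AOMDSS 2 or 3 (1.12 to 1.36, adjusted p = 0.063 to 0.13, limma). With normexp background correction the calls with WT and with KO marrow were lost too, while the mean of both passed. In the same 3 mice of slide 2 the KO-marrow change was 1.51, with no test.

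Tlr1, which forms a receptor for triacylated lipopeptides together with Tlr2, passed no test. It read 1.20, 1.24 and 2.00 in WT_untreated mice and 1.69, 2.02 and 2.16 in KO_untreated mice. In treated mice it read 2.10 and 2.55 with WT marrow, with no value for WT_AOMDSS 2, whose spot was marked as an outlier, and 2.02, 2.40 and 2.30 with KO marrow. The values overlapped with KO marrow but not with WT marrow. The change was 0.84 ± 0.31 (adjusted p = 0.081, limma) with WT marrow, fitted on 2 treated mice, and 0.28 ± 0.27 (adjusted p = 0.72, limma) with KO marrow. For the mean of both it was 0.56 ± 0.21 (adjusted p = 0.069, limma). It passed with WT marrow without WT_untreated 3, the highest of that group (1.11, adjusted p = 0.046, limma).

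Tlr4, the lipopolysaccharide receptor that Cd14 serves, passed no test, and its probe was also printed in 10 spots. It read 1.85, 1.29 and 0.76 in WT_untreated mice and 1.50, 0.91 and 1.29 in KO_untreated mice. After treatment it read 1.53, 1.88 and 1.56 with WT marrow and 1.26, 1.22 and 1.16 with KO marrow. Treated mice fell inside the range of the untreated mice, apart from WT_AOMDSS 2, which was slightly above it. The change was 0.35 ± 0.28 (95% interval -0.26 to 0.96) with WT marrow and -0.02 ± 0.28 (-0.63 to 0.60) with KO marrow, neither past the threshold. The spots of 1 array had a median SD of 0.084, against a spread of 0.55 (SD) between the WT_untreated mice.

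Among the receptors for nucleic acids, which sit in endosomes, Tlr3 and Tlr9 gave measurable signals. Tlr3 binds double-stranded RNA and signals through Ticam1 without Myd88. It read -2.49, -2.46 and -2.22 in WT_untreated mice, -2.40, -2.32 and -2.25 in KO_untreated mice, -1.41, -1.61 and -1.61 in WT_AOMDSS mice and -1.78, -1.61 and -1.17 in KO_AOMDSS mice. Treated and untreated mice did not overlap with either marrow. The change was 0.85 ± 0.31 (adjusted p = 0.080, limma) with WT marrow and 0.80 ± 0.31 (adjusted p = 0.24, limma) with KO marrow, and for the mean of both 0.83 ± 0.22 (adjusted p = 0.021, limma), the only one of the 3 that passed. That call was lost with slide as a block (0.89, adjusted p = 0.16), and without WT_untreated 1, WT_untreated 2 or WT_AOMDSS 1 (0.80 to 0.81, adjusted p = 0.052 to 0.056, limma). Normexp background correction lost it as well. With WT marrow Tlr3 passed in 2 of 21 alternative settings. A second Tlr3 probe disagreed, with a change of -0.39 ± 0.52 (adjusted p = 0.61, limma) for the mean of both. Its readings overlapped between treated and untreated mice with each marrow. It was not well above background in WT_AOMDSS 3, where it read -5.14. Without that array it would have been the brighter of the 2 probes, and so the one tested. With the 2 probes averaged the change was 0.22 (adjusted p = 0.64, limma).

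Tlr9, the receptor for unmethylated CpG DNA, was spread widely and passed no test. It read 2.47, 2.34 and 2.08 in WT_untreated mice, 2.77, 1.26 and 1.21 in KO_untreated mice, 1.30, 1.11 and 2.10 in WT_AOMDSS mice and 1.44, 1.59 and 1.60 in KO_AOMDSS mice. The levels differed by slide, with all 4 arrays of slide 1 at 2.08 or above and all 4 arrays of slide 3 at 1.59 or below. The change was -0.79 ± 0.38 (adjusted p = 0.17, limma) with WT marrow and -0.20 ± 0.38 (adjusted p = 0.86, limma) with KO marrow. The mean of both turned with slide as a block from -0.50 to 0.85 (adjusted p = 0.20 and 0.11, limma). Without WT_AOMDSS 3 the WT-marrow value was -1.09 and passed (adjusted p = 0.045, limma).

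Tlr7, the receptor for single-stranded RNA, was well above background on 6 of 12 arrays and on all 3 arrays of no group. Its signals of -8.82 to -4.65 are therefore given without a test. By group, 1 of 3 WT_untreated, 1 of 3 KO_untreated, 2 of 3 WT_AOMDSS and 2 of 3 KO_AOMDSS mice had a signal well above background.

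Myd88, the adaptor shared by most Toll-like receptors and the interleukin-1 receptor family, rose in treated mice and was read by 10 spots per array. It was at 0.85, 0.94 and 1.21 in WT_untreated mice, 1.21, 1.67 and 1.47 in KO_untreated mice, 2.33, 2.08 and 1.71 in WT_AOMDSS mice and 2.03, 2.50 and 1.86 in KO_AOMDSS mice. All treated mice were above all untreated mice, but WT_AOMDSS 3 exceeded KO_untreated 2 by only a few hundredths. The change was 1.04 ± 0.25 (adjusted p = 0.024, limma) with WT marrow and 0.68 ± 0.25 (adjusted p = 0.21, limma) with KO marrow. The difference between these changes was -0.36 (95% interval -1.14 to 0.41, adjusted p = 0.90, limma), so they were not shown to differ. The mean of both, 0.86 ± 0.18 (adjusted p = 0.0073, limma), fell to 0.32 with slide as a block (adjusted p = 0.48, limma), and the WT-marrow change to 0.39 (adjusted p = 0.63, limma). The WT-marrow call was also lost without WT_untreated 1, WT_untreated 2, WT_AOMDSS 1 or WT_AOMDSS 2 (0.90 to 1.02, adjusted p = 0.061 to 0.099, limma). With normexp background correction neither the WT-marrow call nor that for the mean of both held. In the 3 mice of slide 2 the KO-marrow change was 0.29, with no test.

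Nod2, the cytosolic sensor of muramyl dipeptide, had the second largest change for the mean of both marrows in the fit without slide. It read -1.96, -2.18 and -2.90 in WT_untreated mice, -2.41, -3.41 and -3.54 in KO_untreated mice, -1.10, -1.63 and -0.999 in WT_AOMDSS mice and -1.47, -1.24 and -1.10 in KO_AOMDSS mice. Treated and untreated mice did not overlap, and the treated groups lay close together. KO_untreated 2 and 3, on slide 2, were lower than KO_untreated 1 on slide 1. The change was 1.10 ± 0.40 (adjusted p = 0.080, limma) with WT marrow and 1.85 ± 0.40 (adjusted p = 0.025, limma) with KO marrow, with a difference of 0.75 between them (95% interval -0.49 to 1.98, adjusted p = 0.90, limma). The mean of both was 1.48 ± 0.29 (adjusted p = 0.0049, limma). With slide as a block it was larger, at 2.39 (adjusted p = 0.015, limma), and in the 1 treated and 2 untreated KO-marrow mice of slide 2 the change was 2.38, with no test. The KO-marrow call was lost without KO_untreated 2 or 3 or any 1 of the 3 KO_AOMDSS mice (1.64 to 1.95, adjusted p = 0.069 to 0.14, limma). Normexp background correction lost that call too. The WT-marrow change passed in 2 of 21 alternative settings. These were quantile normalization (adjusted p = 0.010, limma) and leaving out KO_untreated 1 (1.10, adjusted p = 0.047, limma). That mouse lies outside the comparison and entered only through the shared variance.

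**Figure D2:**
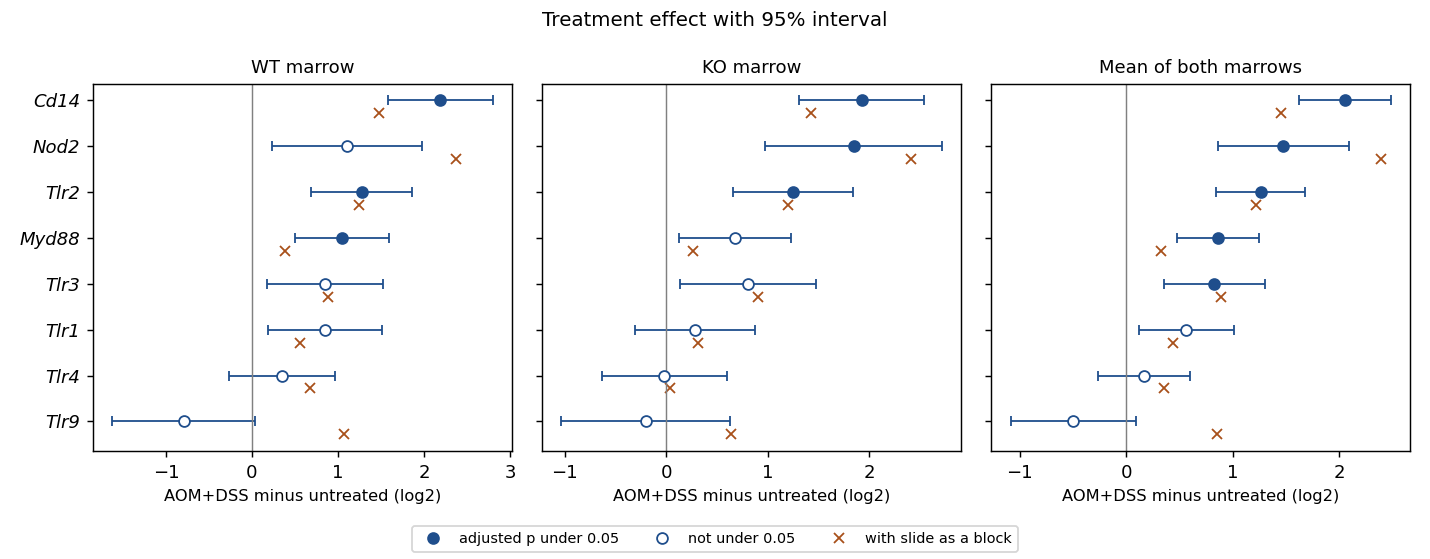
Treatment effect (AOM+DSS minus untreated, log2) of the 8 tested genes with WT marrow, with KO marrow and for the mean of both. Circles are the limma estimates with 95% intervals, filled where the adjusted p was under 0.05, and crosses the estimates with slide as a block. Cd14 and Nod2 lie farthest to the right in the mean of both (2.06 and 1.48), and the cross of Tlr9 lies on the other side of 0 (0.85 against -0.50).

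The slide block moved the median change of all genes from -0.19 to 0.46 for the mean of both marrows, so members are read against that shift. In that fit Cd14, Nod2, Tlr2, Tlr3 and Tlr9 lay above the median of all genes, and Tlr1, Myd88 (0.32) and Tlr4 (0.36) below it. Of all genes past the threshold with WT marrow, 26.1% were higher in treated mice. That share was 39.8% after quantile normalization and 87.4% with slide as a block.

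The second question was whether marrow lacking Muc1 changed these genes. In limma 0 of the 8 genes differed between the marrows in treated mice, in untreated mice or in the size of the treatment effect, and 0 of 8 had an unadjusted p under 0.05 in any of these. Over all genes, 0% passed after adjustment in each of the 3 comparisons. At an unadjusted p under 0.05 there were 231 genes (0.973%) in treated mice, 2911 (12.3%) in untreated mice and 829 (3.49%) for the difference in treatment effect. Leaving out KO_untreated 1, 1665 genes passed in untreated mice, and 0 of the 8. Of the 1665, 1650 were lower with KO marrow. Without that mouse WT_untreated lay wholly on slide 1 and KO_untreated wholly on slide 2. Marrow and slide cannot be told apart in that fit.

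In treated mice the differences, KO minus WT marrow, were small for most of these genes. Tlr2 differed by 0.0017 (95% interval -0.59 to 0.59), Cd14 by 0.19 (-0.43 to 0.80), Myd88 by 0.09 (-0.46 to 0.63) and Nod2 by -0.03 (-0.90 to 0.84). These intervals do not show that the marrows act alike, since they hold differences of 0.5 or more either way for Tlr2 and Nod2. Tlr4 was the exception in order, since all 3 KO_AOMDSS mice (1.16 to 1.26) were below all 3 WT_AOMDSS mice (1.53 to 1.88). The difference was -0.44 ± 0.28 (adjusted p = 1.00, limma), and such an order was found for 1.69% of all genes. It was of like size within each slide, at -0.40 in slide 2 (1 mouse against 1) and -0.46 in slide 3 (2 against 2), both given without a test.

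In untreated mice Cd14 and Myd88 were higher in all 3 KO-marrow mice than in all 3 WT-marrow mice, by 0.45 ± 0.28 (adjusted p = 0.49, limma) and 0.45 ± 0.25 (adjusted p = 0.44, limma). Groups without overlap in that direction were found for 6.18% of all genes. Within slide 1, where 1 KO_untreated mouse stood against 3 WT_untreated mice, the differences were 0.22 and 0.21. Nod2 differed by -0.78 ± 0.40 (adjusted p = 0.42, limma) over all mice and by -0.067 within slide 1, where only KO_untreated 1 stood, the highest of its group.

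The order of the 4 groups was the same for Cd14 and Myd88, with WT_untreated lowest, then KO_untreated, then WT_AOMDSS and KO_AOMDSS. In Tlr2 and Tlr3 the untreated groups were level, and so were the treated ones. In Nod2 KO_untreated was lowest, at -3.12 ± 0.62 (SD, n = 3), and WT_untreated at -2.35 ± 0.49 lay between it and the treated groups at -1.24 ± 0.34 and -1.27 ± 0.19. In each of these 5 genes the steps between the marrows did not pass the test.

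The other genes of this sensing system were described from lists of receptors, adaptors, inhibitors and outputs, with 53 of 67 listed genes measured. For the mean of both marrows 19 were higher and 1 was lower after treatment, with WT marrow 13 and 1, and with KO marrow 8 and 0. These counts stand beside 7.55% of all genes higher and 13.5% lower for the mean of both, 3.6% and 10.2% with WT marrow, and 1.85% and 1.31% with KO marrow. Cxcl1, Cxcl2 and Il6, higher in each of these comparisons, were kept for testing only through treated mice. Their place in the counts partly follows from that filter. With slide as a block the counts were 8 higher and 1 lower for the mean of both, and 2 and 0 with WT marrow. With KO marrow they were 8 and 1. The gene lower for the mean of both in that fit was an adaptor or kinase other than Ticam1. With normexp background correction the counts were 10 and 1, 8 and 0, and 7 and 0 in the same order. Of all 23739 genes, the slide block called 974 higher and 497 lower for the mean of both, and 111 and 16 with WT marrow. With KO marrow it called 1106 and 618. Normexp called 1118 and 1259, 308 and 547, and 317 and 250. Among the fits that left out 1 mouse, the counts were lowest with WT marrow without WT_untreated 2, at 3 and 0, or WT_AOMDSS 1, at 4 and 0, and with KO marrow without KO_untreated 3, at 5 and 0.

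Among 7 other receptors and co-receptors, 2 rose for the mean of both marrows. Lbp, the plasma protein that carries lipopolysaccharide to Cd14, rose by 3.79 ± 0.58 (adjusted p = 0.0011, limma), from -3.93 to -2.98 in untreated mice to -2.50 to 1.73 in treated mice. Lbp was at 1.89 with slide as a block (adjusted p = 0.11, limma). Pglyrp1, a peptidoglycan-binding protein of neutrophil granules, rose by 1.11 ± 0.22 (adjusted p = 0.0051, limma). That call was lost with slide as a block (0.86, adjusted p = 0.22) and with normexp background correction (0.71, adjusted p = 0.088, limma). Pglyrp2, an amidase that cuts peptidoglycan, fell with WT marrow by 1.96 (adjusted p = 0.048, limma), and its change with KO marrow was 0.10. The fall did not pass with slide as a block (-0.23, adjusted p = 0.91) or with normexp (-0.46, adjusted p = 0.49, limma). Ly96, the partner that Tlr4 needs to bind lipopolysaccharide, was at 0.21 and Tlr6, another partner of Tlr2, at 0.38, neither past the threshold. Of 3 genes for receptor folding and transport, Hsp90b1, the chaperone of Toll-like receptors, rose by 0.69 ± 0.18 (adjusted p = 0.019, limma), but not with slide as a block (1.11, adjusted p = 0.064) or normexp (0.20, adjusted p = 0.62, limma).

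Of 13 adaptors and kinases, 4 rose and 1 fell. Irak4, the first kinase recruited by Myd88, rose by 1.20 ± 0.32 (adjusted p = 0.021, limma), Ikbkb, the kinase that marks the NF-kappaB inhibitor for destruction, by 1.06 ± 0.22 (adjusted p = 0.0077, limma), and Traf3, a ubiquitin ligase of both the Myd88 and the Ticam1 branch, by 0.82 ± 0.21 (adjusted p = 0.020, limma). Tirap, which brings Myd88 to Tlr2 and Tlr4, rose by 0.71 ± 0.19 (adjusted p = 0.021, limma). Irak4 was at 0.028 and Ikbkb at 0.22 with slide as a block, and none of the 4 passed then. Traf3 and Tirap also lost their call with normexp (0.61 and 0.38, adjusted p = 0.077 and 0.22, limma). Ticam1, the adaptor that Tlr3 uses in place of Myd88, was the gene that fell, by 0.74 ± 0.16 on the log2 scale. It was at 0.57 to 0.88 in untreated mice and -0.28 to 0.20 in treated mice, without overlap (adjusted p = 0.010, limma). The slide block gave -0.85 (adjusted p = 0.10, limma).

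Of 9 inhibitors of the pathway, 3 rose. Il1rl1, the receptor of interleukin-33, whose soluble and membrane forms dampen Toll-like receptor signals, rose by 2.94 ± 0.43 (adjusted p = 0.00092, limma). Socs1, an inhibitor of cytokine and Toll-like receptor signalling, rose by 2.48 ± 0.36 (adjusted p = 0.00083, limma), and both passed with slide as a block too (4.11 and 2.69, adjusted p = 0.0078 and 0.049, limma). Nfkbia, the inhibitor that holds NF-kappaB in the cytosol, rose by 0.68 ± 0.20 (adjusted p = 0.032, limma), fitted without WT_AOMDSS 2, which had no value. It did not pass with slide as a block (1.09, adjusted p = 0.074) or normexp (0.53, adjusted p = 0.18, limma). Irak3, Tollip and Cyld were at 0.08, 0.0024 and 0.22, none past the threshold. Of 6 inflammasome genes 1 rose, Naip5, a sensor of flagellin inside the cell, by 0.84 ± 0.26 (adjusted p = 0.042, limma), again with no value for WT_AOMDSS 2. Its call too was lost with slide as a block (1.32, adjusted p = 0.076) and with normexp (0.44, adjusted p = 0.27, limma). Of 8 transcription factors 3 rose: Irf8, which macrophages and dendritic cells need to develop, by 1.03 ± 0.28, and the NF-kappaB subunit genes Nfkb2 by 0.82 ± 0.19 and Rela by 0.58 ± 0.18 (adjusted p = 0.030, 0.012 and 0.039, limma). Irf8 had no value in KO_AOMDSS 1 and 2, so its treated KO-marrow group was 1 mouse. With the slide block Irf8 passed (1.22, adjusted p = 0.049), and Nfkb2 (0.30, adjusted p = 0.54) and Rela (0.46, adjusted p = 0.36, limma) did not. With normexp Nfkb2 passed, and Irf8 (0.70, adjusted p = 0.10) and Rela (0.22, adjusted p = 0.44, limma) did not.

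The output genes, cytokines and chemokines that NF-kappaB controls, changed most, with 5 of 7 higher with each marrow. Of these 5, Cxcl1, Cxcl2 and Il6 were kept for testing only because every array of a treated group read them well above background. That count therefore partly follows from the filter. Il1b rose from -5.21 to -3.70 in untreated mice to 1.85 to 4.44 in treated mice, a change of 7.22 ± 0.46 (adjusted p = 3.0e-06, limma). Cxcl1, which attracts neutrophils, rose by 4.92 ± 0.47 (adjusted p = 4.7e-05, limma) and Tnf by 2.27 ± 0.32 (adjusted p = 0.00066, limma). Cxcl2 was not well above background in any untreated mouse and was at least 30.8-fold higher after treatment with WT marrow and at least 19.6-fold with KO marrow. For such a fold, each untreated array counted at the dimmest signal that was well above background there, or at this probe's signal if that was higher. Its adjusted p was 0.0019 and 0.00073 in limma. Il6 rose by 2.39 ± 0.74 with WT marrow (adjusted p = 0.0497, limma) and was at least 5.30-fold higher with KO marrow (adjusted p = 0.015, limma). With WT marrow it was well above background in only 1 of 3 untreated and 2 of 3 treated mice, so that estimate rests partly on signals near background. Nfkbiz was at 1.11 and the anti-inflammatory cytokine Il10 at -0.76, neither past the threshold. The 5 genes that rose passed again with slide as a block for the mean of both, with changes of 2.99 to 9.43, and with KO marrow. With WT marrow 2 of 7 passed then, Il1b and Cxcl2, while Cxcl1, Il6 and Tnf did not (adjusted p = 0.094, 0.16 and 0.10, limma). Il6 lost its call with normexp in all 3 comparisons (adjusted p = 0.061 to 0.64, limma).

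**Figure D3:**
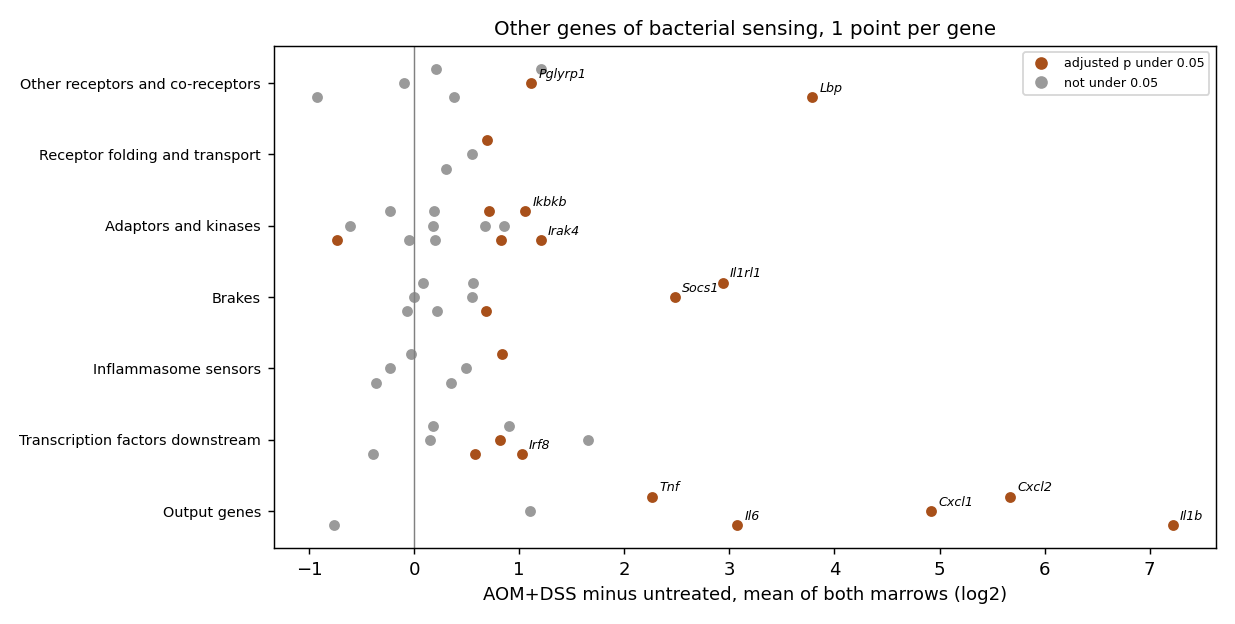
Change with treatment (log2, mean of both marrows) of 53 genes of bacterial sensing, grouped by role, 1 point per gene. Coloured points had an adjusted p under 0.05, and those that moved by over 1 are named. The output genes reach 7.22 (Il1b), and the adaptors and kinases lie between -0.74 and 1.20.

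Markers of some of the cell types that use these receptors moved with treatment, and those of others did not. Of 12 listed monocyte and macrophage markers 10 were measured and 9 were higher for the mean of both marrows. Their summed signal, in multiples of the array's 75th percentile, was 8.19 to 34.0 in WT_untreated, 5.46 to 15.2 in KO_untreated, 28.1 to 56.9 in WT_AOMDSS and 34.2 to 53.0 in KO_AOMDSS mice. Of 12 listed neutrophil markers 9 were measured and all 9 were higher, with sums of 0.235 to 0.514, 0.211 to 0.331, 49.7 to 125.6 and 11.8 to 54.4 in the same order. The neutrophil genes Csf3r, Retnlg, Cxcr2 and Mmp8 were not well above background in any untreated mouse. These genes, S100a8 and Clec4e were kept for testing only because every array of a treated group read them well above background. The same holds for the macrophage markers Msr1 and Ccr2 and the fibroblast marker Pdgfra. The counts of higher markers in these lists therefore partly follow from that filter. Of 8 fibroblast markers 7 were higher, and of 10 epithelial markers 0 passed the test, with sums of 1459 to 2882 over all mice. Of 6 dendritic cell markers measured 3 were higher and 2 lower, and of 7 B and plasma cell markers 2 were higher. Of 6 T cell, 6 smooth muscle and 5 adipocyte markers 0 passed, and of 5 endothelial markers 1 was lower. Over all genes 7.55% were higher and 13.5% lower for the mean of both. With slide as a block, 3 of the 10 monocyte and macrophage markers, 8 of the 9 neutrophil markers and 1 of the 8 fibroblast markers were higher for the mean of both, and 1, 3 and 0 with WT marrow. For the mean of both in that fit, 2 dendritic cell markers were higher and 0 lower, and 0 B and plasma cell and 0 endothelial markers passed. There 1 smooth muscle and 1 epithelial marker were lower. Of all 23739 genes the slide block called 974 higher and 497 lower for the mean of both, and 111 and 16 with WT marrow. Ptprc, a marker of all leukocytes, was at 0.51 for the mean of both and did not pass. The part of these cell types in the changes of the 8 genes was not tested. In a scrape of whole mucosa, a change in the number of cells of a type and a change in the RNA per cell cannot be told apart.

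**Figure D4:**
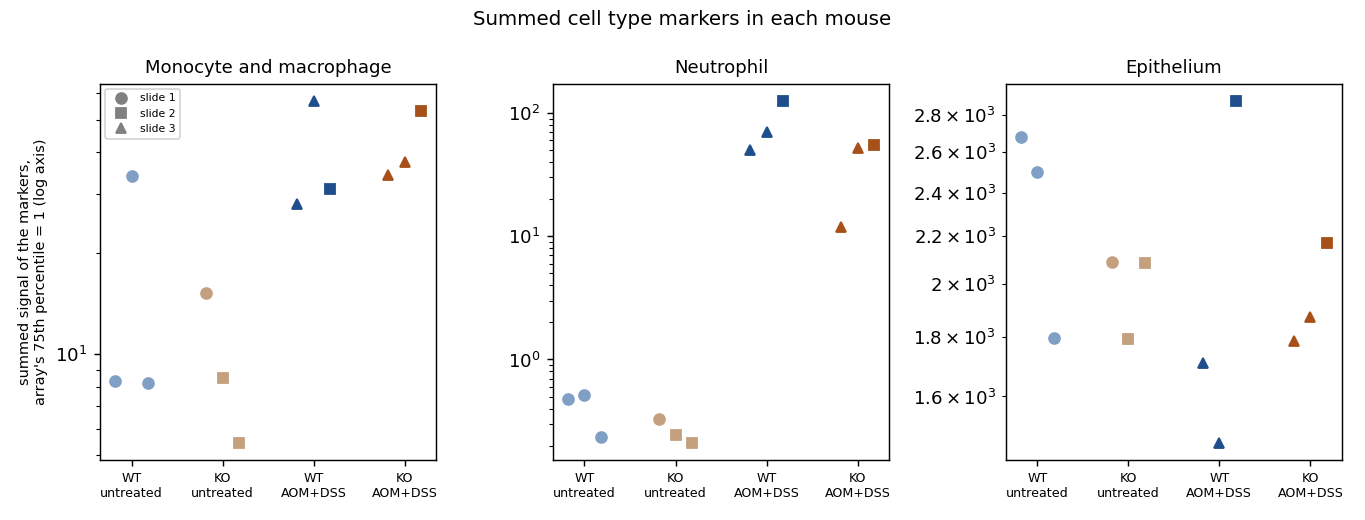
Summed signal of marker genes (multiples of the array's 75th percentile, log axis) for monocytes and macrophages, neutrophils and epithelium in each mouse; shapes give the slide. Neutrophil markers sum to at most 0.514 in untreated and at least 11.8 in treated mice, monocyte and macrophage markers overlap between WT_untreated and WT_AOMDSS mice, and epithelial markers stay within 1459 to 2882.

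The genes whose pattern over the 12 arrays was most like that of each gene that rose were found by the smallest root-mean-square difference of centred log2 values, among 13389 genes with a symbol. For Tlr2 they were Acot9 (0.17), Egfr (0.20) and Ermp1 (0.25), against a median over all genes of 0.92. For Cd14 they were Slc28a3 (0.30), Raph1 (0.30) and Pde9a (0.32), against 1.27, and for Nod2 Jdp2 (0.24), Slc2a6 (0.26) and Gng2 (0.28), against 1.06. For Myd88 they were Clptm1l (0.14), Rhbdd2 (0.15) and Mphosph6 (0.16), against 0.81, and for Tlr3 Acot11 (0.13), Cyrib (0.14) and Gins3 (0.15), against 0.75. As the nearest genes were picked, values far below the median follow from the choice. Treatment and slide overlapped on these arrays, and shared regulation was not tested.

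The authors' deposited table of group means, which holds 2506 probes, lists probes of 3 of the 10 genes. In it Cd14 stands at -1.21, -0.75, 1.00 and 1.19 in WT_untreated, KO_untreated, WT_AOMDSS and KO_AOMDSS, as log2 values relative to the probe's median. In the same order the authors' deposited table gives Tlr2 at -0.58, -0.54, 0.72 and 0.72, and Nod2 at -0.57, -1.33, 0.56 and 0.53. The differences between treated and untreated groups in these 3 rows were 2.21 and 1.94 for Cd14, 1.30 and 1.26 for Tlr2 and 1.13 and 1.86 for Nod2, with WT and KO marrow, per the authors' deposited table.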

How the data were processed

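Per the file headers, the deposited scanner files of the 12 Agilent arrays hold linear spot intensities, with the background already removed by Feature Extraction 10.7.3.1. The authors also deposited a table of log2 group means of 2506 probes. Set against the arrays, 96.8% of its values lay within 0.1 of the log2 group mean minus the probe's median over the 12 arrays, and the sources used here do not say how its probes were chosen.

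In R 4.3.3 with limma 3.58.1 (and version 1.17.8 of data.table), the log2 processed signal minus each array's 75th percentile was used. Control spots were left out and spots marked as outliers were set to missing, which left 43379 gene spots of 41174 probes. Probes were named through their accession in a RefSeq table (GRCm38.p6, names only), which gave 24375 probes a symbol. The 30210 probes that every array of some group read well above background were kept, and the brightest kept probe stood for its gene. This gave 23739 genes, 14661 with a symbol. A mean per group was fitted to all 12 arrays, with variances moderated along intensity (8 residual and 4.94 prior degrees of freedom), and p-values were adjusted by Benjamini-Hochberg within each of 6 comparisons. The number of arrays limits the precision. The labels give 1 colon per sample and do not say how far the mice shared cages or litters, so p-values measure the spread between these mice.

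Named were all 10 genes, the listed pathway genes past the threshold in a treatment comparison, and the 3 genes most like each gene that rose. Single genes below the threshold named in the lists were picked after their values were seen. The genes and lists were chosen with earlier results of these data known. Same-numbered treated mice shared a slide, and their deviations from the group means correlated at 0.42, 0.31 and 0.51. These correlations cannot tell a pairing by number from the shared slide. Over all 18 same-numbered pairs of groups the correlation was over 0.1 in 7 (-0.38 to 0.51), and some of these pairs also shared a slide, namely WT_untreated 1 with KO_untreated 1, and KO_untreated 3 with both treated mice numbered 3. As not every pair was over 0.1, the numbers were not taken to pair the mice. Alternatives were quantile normalization, normexp background correction (offset 50, on median signals, since mean signals were not in the files), no filter, the mean of a gene's probes, no variance trend, slide or replicate number as a block, fits within slides, and leaving out each mouse. Scan day as a block and slides 1 and 2 only were added after seeing the data. Protein sequences were not used here.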

Additional observations from a re-analysis of the deposited data

How the results depend on the processing

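The number of the 8 genes past the threshold was 3 with WT marrow, 3 with KO marrow and 5 for the mean of both. With WT marrow it was 5 after quantile normalization, 1 with normexp background correction, 0 with slide as a block and 1 on slides 1 and 2 only, and 1 to 4 when each mouse was left out in turn. On those slides each treated group is 1 mouse, assumed to vary like the untreated groups. Among the fits that left out a mouse, the low value of 1 came without WT_untreated 1 or WT_AOMDSS 1. With KO marrow it was 1 with normexp and 1 on slides 1 and 2 only, and 1 to 3 when each mouse was left out, lowest without KO_untreated 2, KO_untreated 3, KO_AOMDSS 2 or KO_AOMDSS 3. For the mean of both it was 3 with normexp, 2 with slide as a block and 3 on slides 1 and 2 only, and 4 to 6 when each mouse was left out. The comparisons of the marrows gave 0 under every setting tried. With the replicate number as a block the counts were 3, 3 and 6, the added gene being Tlr1 (0.56, adjusted p = 0.042, limma). For the treated marrows, whose same-numbered mice shared a slide, the count with this block was 0. The block changed no other call among the 8 genes. Cd14 passed in all 21 alternative settings for the mean of both and with KO marrow, within-slide values aside, and in 20 of 21 with WT marrow. Nod2 passed in all 21 for the mean of both, Tlr2 in 20, Myd88 in 17 and Tlr3 in 14. No called value changed sign. The cause of each change was not tested.

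Over all genes, the count past the threshold with WT marrow was 3273. It was 127 with slide as a block, 855 with normexp and 487, 523 and 1926 when WT_untreated 1, 2 or 3 was left out. Leaving out WT_AOMDSS 1 or 2 gave 502 and 1279, and leaving out WT_AOMDSS 3, the dimmest array, 7605. For the mean of both it was 4986 against 1471 with slide as a block and 2377 with normexp, with 36.0% higher in the main fit against 66.2% and 47.0%, 44.3% after quantile normalization and 59.6% with scan day as a block. With KO marrow it was 749 against 1724 with slide as a block. No slide held both WT-marrow groups, so the slide-block value there rests on the mice with KO marrow that link the slides. For the same reason no within-slide value could be had for WT marrow, for the mean of both or for the difference between the marrows. Signals near background, as in Tlr7, limit what these arrays can show.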
